A study of Mus musculus with 4 samples.

Results

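The genes of the cytosolic ribosome were followed in cultured mouse blood progenitors on their way to the T-cell lineage. Members were every gene whose symbol starts with Rpl or Rps and a number, together with Rplp0, Rplp1, Rplp2 and Rpsa. Symbols marked as pseudogenes and the Rps6k kinases were left out, and at least 10 raw counts over both experiments were required. This gave 85 genes of the 31053 counted, and 1 further gene that matches by symbol, Rpl10l, was below the minimum. Of the 85, 77 are the usual gene of 1 ribosomal protein each, 31 for the small and 46 for the large subunit. The other 8 are Rpl22l1, Rpl7l1, Rpl3l, Rpl39l, Rpl36al, Rps27l and Rps27rt, which are second copies of a ribosomal protein gene, and Rps19bp1, whose product binds Rps19 and is not itself a ribosomal protein.

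Cytosolic ribosomes are made of ribosomal RNA and a nearly equal number of copies of each ribosomal protein, so cells that grow need these mRNAs in large and balanced amounts. Most of these mRNAs begin with a run of pyrimidines, the 5′ terminal oligopyrimidine (TOP) tract, through which the kinase mTOR and the protein Larp1 set their translation, while Myc drives the genes that build ribosomes. Among T cells, Rpl22 is needed by alpha-beta precursors. In people, loss of 1 copy of any of several ribosomal protein genes causes Diamond-Blackfan anaemia, a failure of red-cell production.

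The cells were bone marrow progenitors cultured on OP9-Dll1, a stromal line that displays the Notch ligand Dll1, with IL-7 and Flt3-ligand at 10 ng/ml. One arm used progenitors of B6.Bcl2 transgenic mice aged 8 to 10 weeks, infected on day 2 with the retroviral vector MSCV-Runx1-mCherry or with MSCV-empty-mCherry and harvested on day 4 or 6. The other arm used B6.Cas9;Bcl2 mice, infected on day 2 with guide vectors against Runx1 (E42-gRunx1-hNGFR) and Runx3 (E42-gRunx3-mTurquoise), 3 guide pairs per gene, or with control guides against luciferase, and harvested on day 5 or 8. All arms therefore carry the Bcl2 transgene and a retroviral vector, and the sort kept lineage-negative, CD45-positive cells with the vector's reporter. Each culture was marked with a hashtag, a DNA-barcoded antibody, and equal cell numbers were pooled for 10x Chromium version 3 sequencing, in 1 library per experiment. The labels give 4 to 5 days of culture for experiment 1 and 4 to 8 days for experiment 2.

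The hashtag tables name the 8 hashtags only by their barcodes, so no hashtag could be tied to Runx1 gain, Runx loss, a control or a day. Hashtags are numbered 1 to 8 in the order of the table columns and described one by one, as samples of unknown condition with no replicate of a known group and no p-value. The same number in both experiments need not mark the same kind of culture. After filtering, 8797 cells of experiment 1 and 8335 of experiment 2 had a hashtag, from 691 to 1312 cells and from 14502385 to 42684236 unique molecular identifiers (UMIs) per hashtag. Counts were summed over the cells of a hashtag and scaled to 1000000 UMIs (CPM). The 2 libraries shared 39 cell barcodes. Ptprc, which encodes CD45, was at 135 to 240 CPM and the progenitor receptor gene Kit at 26.4 to 89.0 CPM over the 16 hashtags, while Cd3e reached 38.3 CPM in 1 hashtag and was at 7.21 CPM or less in experiment 1. Runx1 lay between 38.2 and 241 CPM in experiment 1 and between 33.7 and 121 CPM in experiment 2, and Runx3 between 74.7 and 181 CPM over both. These values check no label, since the hashtags carry none and counts of a vector's Runx1 cannot be separated from those of the gene.

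The start sites of 65 of the 85 members were found in RefSeq's promoter table for GRCm38.p6. The sequences below show the start regions, where a TOP tract would lie, of the members that the results turn on. Each covers 10 bases before and 20 bases from the annotated start, 5′ to 3′ on the strand of the gene, with the longest run of C and T in capitals. RefSeq lists 2 starts for Rpl22 and for Rps27l, and the more upstream of the 2 is shown.
Rpl35: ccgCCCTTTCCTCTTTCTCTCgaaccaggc
Rpl38: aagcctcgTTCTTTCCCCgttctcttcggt
Rps27: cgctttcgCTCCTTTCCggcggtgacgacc
Rps27rt: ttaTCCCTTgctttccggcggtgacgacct
Rps27l: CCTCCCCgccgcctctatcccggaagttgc
Rpl22: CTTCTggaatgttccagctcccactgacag
Rpl22l1: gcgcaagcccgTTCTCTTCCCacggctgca
Rpl36a: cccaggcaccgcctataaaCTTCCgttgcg
Rps2: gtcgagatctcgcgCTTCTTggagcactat
These windows lie at chr2:39005112-39005141 (minus strand) for Rpl35, chr11:114668570-114668599 (plus) for Rpl38 and chr3:90213629-90213658 (minus) for Rps27. Those of Rps27rt, Rps27l, Rpl22 and Rpl22l1 lie at chr9:114982720-114982749 (minus), chr9:66946076-66946105 (plus), chr4:152324426-152324455 (plus) and chr3:28805498-28805527 (plus). Those of Rpl36a and Rps2 lie at chrX:134585644-134585673 (plus) and chr17:24720053-24720082 (plus). The run spans 18 bases in Rpl35, 10 in Rpl38 and Rpl22l1, 9 in Rps27, 6 in Rps2 and 5 in Rpl22 and Rpl36a. The run crosses the annotated start in Rpl35, Rpl38 and Rps27. It lies wholly before the start in Rps27rt, Rps27l and Rpl22 and wholly after it in Rpl22l1, Rpl36a and Rps2. The capitals therefore do not mark a TOP tract, and which of these genes have one was not measured.

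A pyrimidine run of at least 8 bases lay in this window in 24 of the 65 matched members (36.9%) and in 13.01% of all 27025 genes with an entry. The letters CTTTCC, on the gene's strand in the same window, were in 11 of 65 (16.9%) and in 1.52% of all genes. Over the whole 300-base entry and both strands, CTTCCG, the core bound by Ets factors, was in 44 of 65 (67.7%) against 18.8% of all genes, and part of a match can lie in a pyrimidine run. The Runx core TGTGGT was in 7 of 65 (10.8%) against 18.9% of all genes. Those 7 were Rpl6, Rpl18, Rps2, Rps3a1, Rps12, Rps25 and Rps27rt. A match is only a description of these letters. Rps27 and Rps27rt share an unbroken run of 38 bases from bases 2 to 39 of Rps27 and 1 to 38 of Rps27rt, at the 5′ end of the transcripts. The likeness of their 3′ ends, where the reads lie, was not measured here, and if those are alike the counting could split reads between both genes, so their counts are uncertain.

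Ribosomal protein mRNAs made up 27.7% of all UMIs of hashtagged cells in experiment 1 and 30.7% in experiment 2 (exact Clopper-Pearson 95% intervals 27.66 to 27.67% and 30.67 to 30.68%). The share differed little between hashtags, with hashtag 4 lowest and hashtag 7 highest in both experiments. In experiment 1 it was 28.2, 28.1, 26.6, 26.4, 28.1, 27.8, 28.3 and 28.2% in hashtags 1 to 8, so hashtags 3 and 4 stood 1.24 percentage points or more below the other 6. In experiment 2 it was 31.2, 30.5, 31.1, 29.0, 30.1, 30.3, 32.2 and 30.6%. There hashtag 4 was 1.06 points below its nearest neighbour and hashtag 7 was 0.964 points above its own. The highest share was 1.07 times the lowest in experiment 1 and 1.11 times in experiment 2. The same kind of interval, which covers counting error only, overlapped between neighbours in rank for hashtags 1 and 8 of experiment 1 and for no other pair of neighbours. In sums over cells, a different mix of cells and a different level per cell cannot be told apart.

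**Figure D1:**
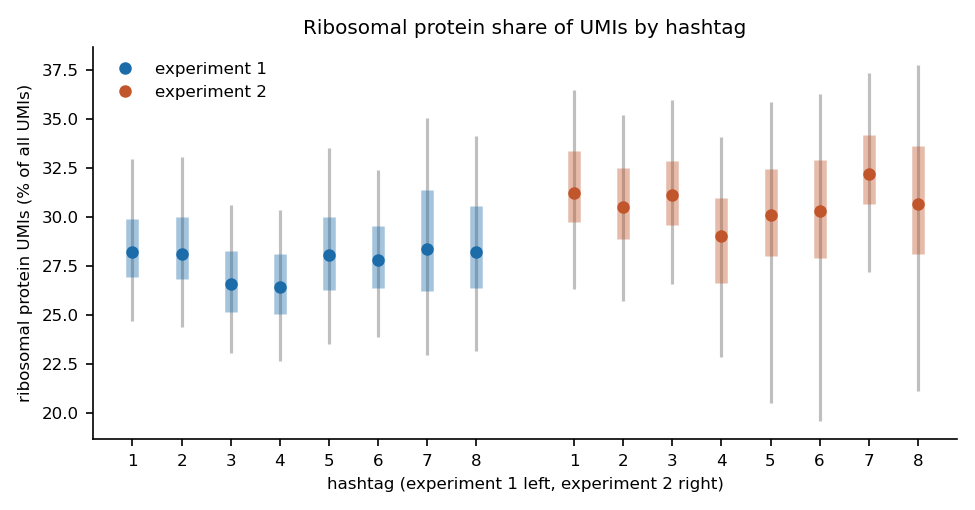
Share of all UMIs taken by the 85 ribosomal protein genes in each hashtag of both experiments. Points are shares of summed UMIs, thick bars the 25th to 75th percentile of cells and thin lines the 5th to 95th percentile of cells. The points run from 26.4 to 28.3% in experiment 1 and from 29.0 to 32.2% in experiment 2.

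Both subunits kept nearly the same proportion in every hashtag. Small-subunit genes took 12.6% and large-subunit genes 14.8% of UMIs in experiment 1, and 13.9 and 16.5% in experiment 2. The ratio of small to large lay between 0.849 and 0.858 over the hashtags of experiment 1 and between 0.840 and 0.855 in experiment 2.

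Scaled to total UMIs, single members varied less between hashtags than the typical gene of the library. Genes entered this comparison if their mean over hashtags reached 50 CPM and their lowest hashtag held 10 UMIs or more, which 83 of the 85 members met in both experiments. None of the 83 differed by 1.5-fold between its highest and lowest hashtag in either experiment, while 14.8% of the 2869 genes tested did in experiment 1 and 21.6% of 2643 in experiment 2. At 1.25-fold, a limit chosen after the values were seen, the count was 2 of 83 in experiment 1, against 43% of all genes. In experiment 2 it was 8 of 83, against 53.1%, and this difference narrowed under the other scalings given below. The median ratio of the members was 1.11 and 1.13, and that of all genes tested 1.22 and 1.26. The gap was also there among genes of similar abundance: at a mean of 1000 CPM or more, 1.25-fold was reached by 1 of 76 members and 24 of 72 other genes in experiment 1, and by 5 of 77 and 35 of 68 in experiment 2. Among the smallest ratios were those of Rps13 (1.03), Rpl37 and Rpl18 (1.04 each) in experiment 1 and of Rpl18 (1.06), Rpl24 and Rpl35 (1.07 each) and Rps28 (1.08) in experiment 2.

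**Figure D2:**
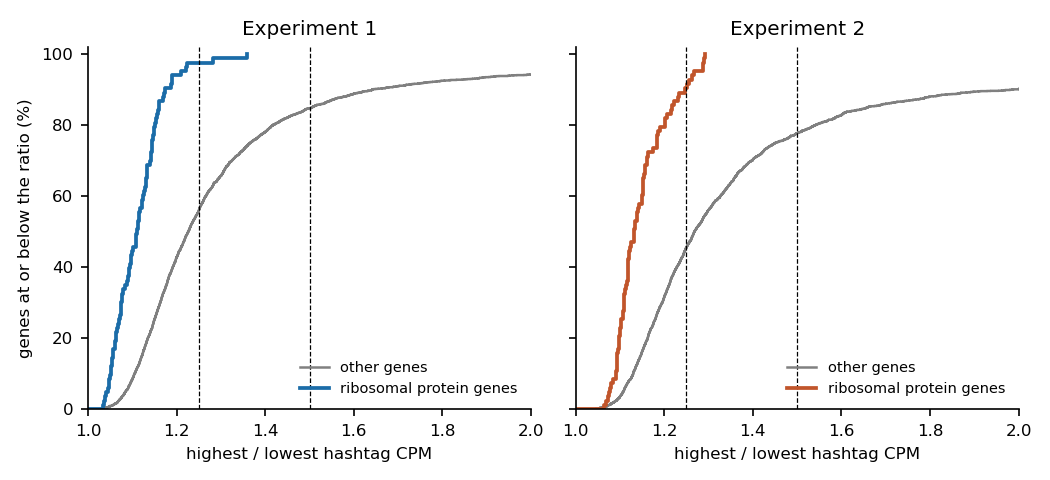
Cumulative share of genes by the ratio of their highest to their lowest hashtag, for ribosomal protein genes and for all other genes tested. Dashed lines mark 1.25-fold and 1.5-fold, and genes beyond 2-fold lie outside the axis. All members end left of the 1.5-fold line.

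The members also shared the hashtags in which they were low or high. In experiment 1, 55 of 83 were lowest in hashtag 4 and 14 in hashtag 3, where 12.1% and 10% of all genes tested were lowest. In experiment 2, 59 of 83 were lowest in hashtag 4, against 12.4% of all genes. Hashtag 7 was the highest for 38 members in experiment 1 and 52 in experiment 2, against 17% and 13.2% of all genes. The low position of hashtag 4 held under every scaling tried that uses other genes: 73 and 74 members of experiment 1 and 76 and 79 of experiment 2 were lowest there under TMM and DESeq2 size factors, and 69 and 66 per UMI of all other genes. Per UMI of the members themselves, which removes differences in their total, 13 and 17 were lowest there. The high position of hashtag 7 did not hold in experiment 1, where TMM and DESeq2 put 13 members highest in hashtag 7 and 35 and 37 in hashtag 1. These scalings also raised the counts at 1.25-fold. TMM gave 4 of 83 members (4.82%) in experiment 1 and 33 (39.8%) in experiment 2, against 45.7% and 58.4% of all genes. DESeq2 size factors gave 4 (4.82%) and 41 (49.4%), against 45.2% and 59.6%. In experiment 2 the members thus lay much nearer to all genes than under total UMIs. In experiment 2 the DESeq2 factors shifted every level in hashtag 4 by -0.10 on the log2 scale relative to scaling by total UMIs. The 59 members lowest there by total UMIs do not include that shift. Markers of other cells also differed between these hashtags: T-lineage markers summed to 1335 CPM in hashtag 4 of experiment 1 and 2101 CPM in hashtag 4 of experiment 2, the highest of each experiment, with all 10 markers detected. The low ends were 552 and 326 CPM. Hashtag 7 of experiment 2, which had the highest ribosomal protein share, had the next highest T-lineage sum there, at 1807 CPM. The part of these cells in the result was not tested.

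Rpl22 and its paralog Rpl22l1 had different orders over the hashtags. The Rpl22 protein is known to hold down Rpl22l1. In experiment 1, Rpl22 was at 1892, 1899, 1585, 1564, 1807, 1793, 1910 and 1868 CPM in hashtags 1 to 8. Rpl22l1 was at 1268, 1255, 1405, 1379, 1317, 1329, 1148 and 1183 CPM. Hashtags 3 and 4 were thus the 2 lowest for Rpl22 and the 2 highest for Rpl22l1, and hashtag 7 was the highest for Rpl22 and the lowest for Rpl22l1. The ratio of Rpl22 to Rpl22l1 ran from 1.13 in hashtag 3 to 1.66 in hashtag 7, a 1.47-fold span. A ratio of 2 genes with opposite orders spans more than either gene, so it is not compared with single members. Among the paralog pairs compared, the ratio of Rps27 to Rps27l spanned slightly more in both experiments, at 1.48-fold in experiment 1. The other pairs spanned less, with Rpl36a to Rpl36al at 1.29-fold in experiment 1. Rpl22 lies at chr4:152324436-152334082 and Rpl22l1 at chr3:28805508-28807424.

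In experiment 2, Rpl22 was at 2031, 1736, 2035, 1658, 1900, 2029, 2094 and 2046 CPM and Rpl22l1 at 1309, 1462, 1310, 1422, 1305, 1169, 1348 and 1187 CPM. Hashtags 2 and 4 were the lowest for Rpl22 and the highest for Rpl22l1. Hashtag 7 was again the highest for Rpl22, but for Rpl22l1 it stood below only hashtags 2 and 4. The ratio of Rpl22 to Rpl22l1 ran from 1.17 in hashtag 4 to 1.74 in hashtag 6, a 1.49-fold span. Spearman's rho between the 2 genes over the 8 hashtags was -0.90 in experiment 1 and -0.33 in experiment 2, given with no test. Under TMM or DESeq2 scaling the highest Rpl22 of experiment 1 moved to hashtag 2, and its lowest hashtag stayed hashtag 4 in both experiments. A ratio within a hashtag shows unequal levels and does not say which gene changed.

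**Figure D3:**
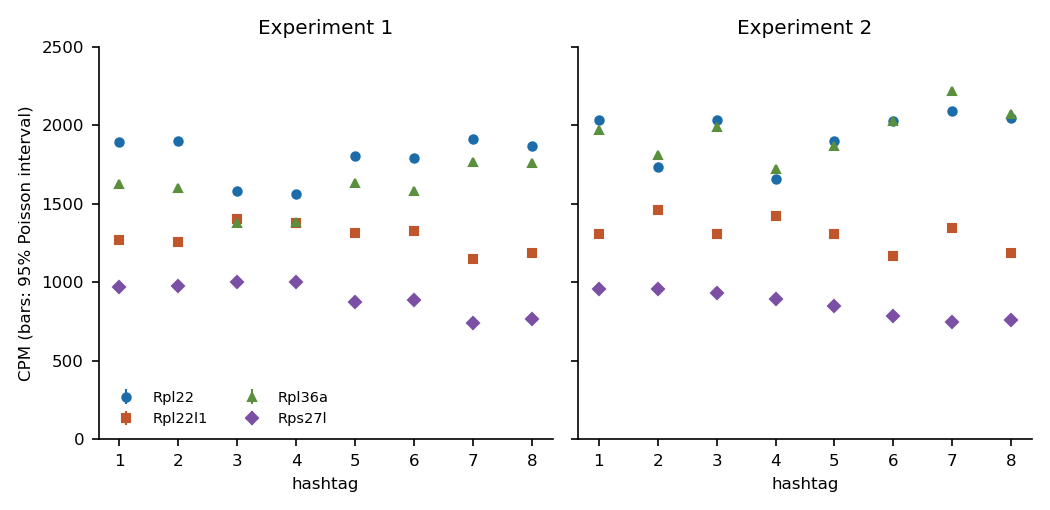
Levels of Rpl22, Rpl22l1, Rpl36a and Rps27l in each hashtag, in CPM from 0, with exact 95% Poisson intervals that are smaller than most symbols. In experiment 1 Rpl22 was low and Rpl22l1 high in hashtags 3 and 4, and in experiment 2 in hashtags 2 and 4.

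Rps27l had the largest ratio of any member in experiment 1, 1.36 (counting interval 1.33 to 1.39). It is a paralog of Rps27 and a known target of p53. It was at 969, 976, 1000, 1002, 872, 884, 737 and 768 CPM in experiment 1, so the 4 hashtags numbered 1 to 4 lay above the other 4. In experiment 2 it was at 957, 956, 935, 893, 852, 782, 744 and 762 CPM, with a ratio of 1.29, and again hashtags 1 to 4 were the 4 highest. Rps27 itself was at 1500 to 1516 CPM in hashtags 1 to 4 of experiment 1 and at 1568 to 1645 CPM in the other 4. In experiment 2 these sets overlapped, at 2285 to 2494 CPM and 2339 to 2657 CPM. The ratio of Rps27 to Rps27l spanned 1.51 to 2.23 over the hashtags of experiment 1. It spanned 2.39 to 3.57 over those of experiment 2, and hashtag 7 had the highest value both times.

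Rpl36a, an X-linked large-subunit gene at chrX:134585654-134588062, had ratios of 1.28 and 1.29. It was at 1627, 1599, 1380, 1383, 1633, 1581, 1769 and 1762 CPM in experiment 1, lowest in hashtags 3 and 4. In experiment 2 it ran from 1721 CPM in hashtag 4 to 2217 CPM in hashtag 7. Its paralog Rpl36al lay within 672 to 719 CPM and 636 to 701 CPM. Of the other members outside the usual set, Rpl7l1 was at 121 to 139 CPM in experiment 1 and 119 to 151 CPM in experiment 2, and Rps19bp1 at 60.1 to 72.8 CPM and 60.6 to 78.1 CPM.

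Rps2, the most abundant member in both experiments and a small-subunit protein at the mRNA entry site, differed 1.12-fold between hashtags of experiment 1 and 1.29-fold between those of experiment 2. In experiment 1 it was at 7928, 7986, 7236, 7162, 7526, 7477, 7153 and 7258 CPM. In experiment 2 it was at 8841, 7823, 8165, 6838, 7915, 8053, 8080 and 7995 CPM, highest in hashtag 1 and lowest in hashtag 4. Without hashtag 4 its ratio in experiment 2 was 1.13. Rps14 reached a ratio of 1.26 in experiment 2, where hashtag 7 stood at 4730 CPM above 3768 to 4142 CPM in the other 7. Other members with large ratios in experiment 1 were Rpl31 (841 to 1001 CPM) and Rpl13a (342 to 406 CPM). Removing hashtag 4 or hashtag 7 left 5 members at 1.25-fold in experiment 2 in place of 8.

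After Rps2, the highest mean levels in experiment 1 included those of Rpl13 (7184 CPM), Rps20 (6775 CPM), Rplp0 (6211 CPM), Rpsa (6110 CPM), Rpl32 (6094 CPM) and Rps27a (5819 CPM). In experiment 2 Rps20 (7438 CPM) was above Rpl13 (7250 CPM), and Rpl41 (6450 CPM) was above Rps27a (6388 CPM). These are 3′ molecule counts with no length term, on the CPM scale. Rps27a, which is made as a fusion with ubiquitin, lay between 5973 CPM in hashtag 4 and 6558 CPM in hashtag 1 of experiment 2. At the other end, Rpl3l and Rpl39l, the muscle and testis forms of their proteins, failed the minimum. Rpl3l had 60 UMIs in 58 of 9967 barcodes of experiment 1 and 127 in 119 of 10556 barcodes of experiment 2. Rpl39l had 130 UMIs in 31 barcodes and 138 in 35, and 5 barcodes held 39.2% and 58.7% of them, so its counts sat in a few cells.

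Members of named complexes are given by their summed levels. The P stalk of Rplp0, Rplp1 and Rplp2, which recruits elongation factors, summed to 13791 CPM in hashtag 3 and 15315 CPM in hashtag 1 of experiment 1, and to 15037 CPM in hashtag 4 and 17268 CPM in hashtag 7 of experiment 2. Rpl5 and Rpl11, which form the 5S particle that can bind Mdm2, summed to 5428 to 5964 CPM and 5545 to 6192 CPM, both lowest in hashtag 4. Of 12 members mutated in Diamond-Blackfan anaemia, 11 were lowest in hashtag 4 in experiment 1 and 9 in experiment 2. For all members this count was 55 and 59 of 83, and for all genes tested the share was 12.1% and 12.4%. None of the 12 reached 1.25-fold between hashtags, against 2 and 8 of the 83 members and 43% and 53.1% of all genes. Among the 12, Rps19 ran from 4276 CPM in hashtag 4 to 4849 CPM in hashtag 7 of experiment 1.

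Elongation factors and other TOP genes had median ratios of 1.11 in experiment 1 and 1.18 in experiment 2, where the members had 1.11 and 1.13. Of 14 such genes, 1 reached 1.25-fold in experiment 1 and 3 in experiment 2, against 43% and 53.1% of all genes, and 1 of them, Npm1, reached 1.5-fold in experiment 2. Npm1, a nucleolar chaperone, was the widest of them, at 3135 to 4339 CPM in experiment 1 and 2749 to 4184 CPM in experiment 2. Eef1a1, the factor that delivers tRNA, ran from 5990 CPM in hashtag 4 to 6513 CPM in hashtag 7 of experiment 1. The sum of the 14 genes was lowest in hashtag 4 in both experiments, at 23561 and 23669 CPM, and highest in hashtag 1, at 25835 and 26016 CPM.

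Ribosome biogenesis genes, which process ribosomal RNA and assemble the subunits, varied more, with median ratios of 1.29 and 1.40, and had another order. Of 31 in the list, 20 passed the minimum in each experiment, and 15 of them reached 1.25-fold in experiment 1 and 19 in experiment 2, against 43% and 53.1% of all genes. Their sum ran from 5470 CPM in hashtag 7 to 7052 CPM in hashtag 2 of experiment 1, and from 4410 CPM in hashtag 7 to 6096 CPM in hashtag 1 of experiment 2. Hashtag 7 was therefore the lowest for biogenesis genes and the highest for the ribosomal protein share by total UMIs in both experiments. In experiment 1, TMM and DESeq2 scaling moved the highest ribosomal protein level to hashtag 1. Hashtag 7 was also the most frequent lowest hashtag of all genes tested, for 32.9% of them in experiment 1 and 28.4% in experiment 2. Nucleolin (Ncl) was at 1808 to 2426 CPM and 1319 to 1979 CPM. Nhp2, a small nucleolar RNA protein, was at 400 to 567 CPM and 371 to 577 CPM, lowest in hashtag 7 each time.

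Of 10 Myc and mTOR pathway genes, 6 passed the minimum in experiment 1, of which 3 reached 1.25-fold, against 43% of all genes. In experiment 2, 5 passed and 4 reached it, against 53.1%, so these few genes do not stand apart by count. Myc was at 47.0 CPM in hashtag 3 and 48.0 CPM in hashtag 4 of experiment 1 and at 57.4 to 72.7 CPM in the other 6. Mycn, below the minimum, was highest in hashtags 3 and 4, at 55.3 and 53.6 CPM, and was at 11.2 to 32.9 CPM in the other 6. Among those 6, hashtag 7 was the lowest for both Myc and Mycn. In experiment 2 Mycn was highest in hashtags 2 and 4, at 35.9 and 26.3 CPM. Eif4ebp1, a translation repressor that mTOR inactivates, was at 51.8 and 53.6 CPM in hashtags 3 and 4 and at 74.0 to 97.8 CPM in the others. In experiment 2 Eif4ebp1 was at 54.4 and 54.3 CPM in hashtags 2 and 4 and at 89.8 to 114 CPM in the others. Those are the hashtags in which Rpl22 was lowest. Of 78 mitochondrial ribosomal protein genes, 66 passed, of which 22 and 23 reached 1.25-fold, against 43% and 53.1% of all genes. The sums of the 78 were lowest in hashtag 7, at 8168 and 8797 CPM, where 32.9% and 28.4% of all genes tested were lowest.

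Ribosomal protein genes were higher in experiment 2 by a small factor, and a few of them stood far above the rest. The share of UMIs was 1.11 times as high in experiment 2. The median ratio of the 83 members was 1.09, and that of all 2772 genes tested 0.959. At 1.25-fold, 10 members were higher, against 4.91% of all genes, and 1 was lower, Rps27rt, against 20.5%. The 10 were Rps29 (1.78), Rpl38 (1.60), Rpl35 (1.59), Rps27 (1.57), Rps21 (1.53), Rpl37a (1.5), Rpl37 (1.49), Rps28 (1.38), Rpl39 (1.37) and Rpl36 (1.34). In 29 of 83 members every hashtag of experiment 2 was above every hashtag of experiment 1, against 5.7% of all genes, and in 2, Rps27rt and Rpl27, every one was below, against 19.2%. The experiments are 1 library each, with different culture times and an unknown mix of cultures, and library, time and mix cannot be told apart.

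**Figure D4:**
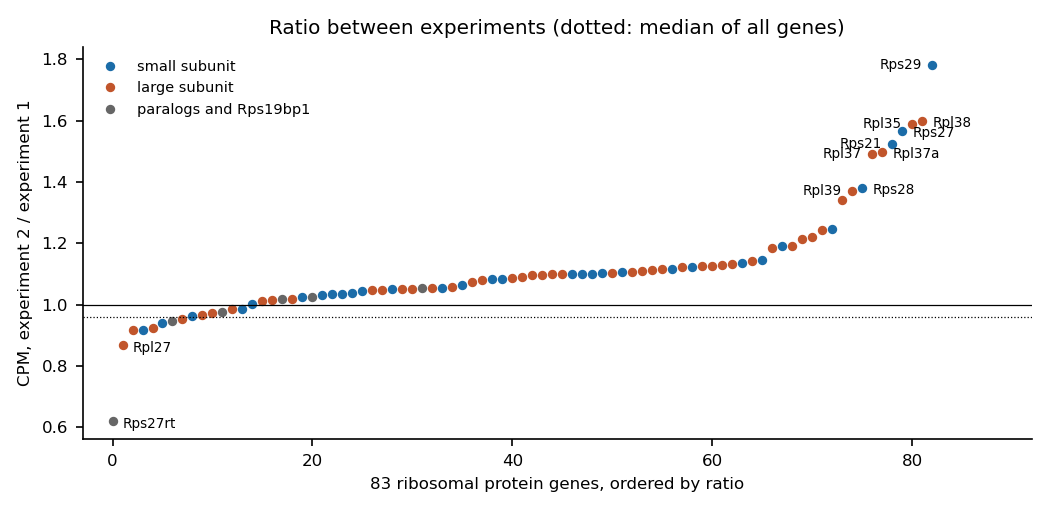
Ratio of CPM in experiment 2 to CPM in experiment 1 for the 83 members that passed the minimum, in order. The solid line is a ratio of 1 and the dotted line the median of all genes, 0.959. Rps29 is highest at 1.78 and Rps27rt lowest at 0.619.

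Rps29, a small zinc-binding protein of the small subunit, was at 2598 to 2989 CPM (median 2757) over the hashtags of experiment 1 and at 4780 to 5220 CPM (median 4853) in experiment 2. Its spread within an experiment was 1.15-fold and 1.09-fold. Rpl38 was at 1811 to 1909 CPM and 2821 to 3194 CPM. The 5 members with the largest ratios between the experiments had groups of hashtags that did not overlap. They were picked by that ratio, so this is no separate result. Over all 83 members, every hashtag of experiment 2 was the higher in 29, against 5.7% of all genes. Rps27 and Rps27rt, whose start windows are shown above, went opposite ways. Rps27 was at 1500 to 1645 CPM and 2285 to 2657 CPM, and Rps27rt at 86.1 to 98.9 CPM and 53.6 to 63.4 CPM. The ratio of the first to the second was 16.03 to 17.4 over the first set of hashtags and 40.6 to 45.9 over the second. Rpl27 (0.867), Rpl12 (0.917), Rps15 (0.918), Rpl4 (0.924) and Rps25 (0.939) followed Rps27rt at the low end.

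The sum over the 21 S-phase genes was 0.828 times as high in experiment 2 and that of ribosome biogenesis genes 0.832 times, while elongation and TOP genes were at 1.003 times and the 78 mitochondrial ribosomal protein genes at 1.05 times. Of the 21 biogenesis genes tested between experiments, 5 were lower by 1.25-fold and none higher, where 20.5% of all genes were lower and 4.91% higher, so the count of lower genes is near the background.

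In single cells the share was broad. Its median was 27.8% in experiment 1, with 5% of cells below 23.4% and 5% above 33.1%. In experiment 2 the median was 30.9%, with the same bounds at 23.7 and 36.2%. Thinned to 3000 UMIs per cell, which left out 121 and 100 shallower cells, the standard deviation over cells was 3.01 and 4.32 percentage points, where counting alone gives 0.818 and 0.844. Unthinned it was 2.96 and 4.37 points. The 83 members had a median count dispersion over cells of 1.43 in experiment 1 and 1.82 in experiment 2, on a scale where counting alone gives 1. Rps2 (3.95 and 6.14) and Rpl41 (2.98 and 5.63) were the most dispersed in both, and Rpl39 (4.46) and Rpl37a (3.59) came next in experiment 2. This dispersion grows with the mean level for the same relative spread, so the order is not one of relative spread. Rpl13, nearly as abundant as Rps2, had 1.48 and 1.76.

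The share was lower in cells with more transcripts of G2 and mitosis genes. Cells of each hashtag were split into 3 equal groups by the summed level of 21 such genes. The high group had a lower ribosomal protein share than the low group in 8 of 8 hashtags of both experiments. The difference was 1.32 to 3.75 points in experiment 1 (median 2.17) and 0.508 to 2.62 points in experiment 2 (median 1.79). In hashtag 7 of experiment 1, which had the largest difference, the shares were 31.0, 28.2 and 27.2% in the low, middle and high group. Not every hashtag fell at each step. In hashtag 1 the middle and high group were at 27.6 and 27.9% in experiment 1 and at 30.6 and 30.9% in experiment 2. The groups also differed in depth. In hashtag 7 of experiment 1 the median was 10826 UMIs per cell in the low and 22517 in the high group. The part of depth was not tested. Across cells, Spearman's rho between the share and this level lay between -0.47 and -0.27 within the 8 hashtags of experiment 1 and between -0.43 and -0.02 within those of experiment 2, each over 691 to 1312 cells. For UMIs per cell, rho with the share lay between -0.38 and -0.15 in experiment 1, negative in 8 of 8 hashtags. In experiment 2 it lay between -0.22 and 0.15, negative in 4 of 8. For S-phase genes it lay between -0.30 and -0.04 in experiment 1, negative in 8 of 8 hashtags. In experiment 2 it lay between -0.10 and 0.21, negative in 4 of 8. These correlations describe cells that share a library and total counts.

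**Figure D5:**
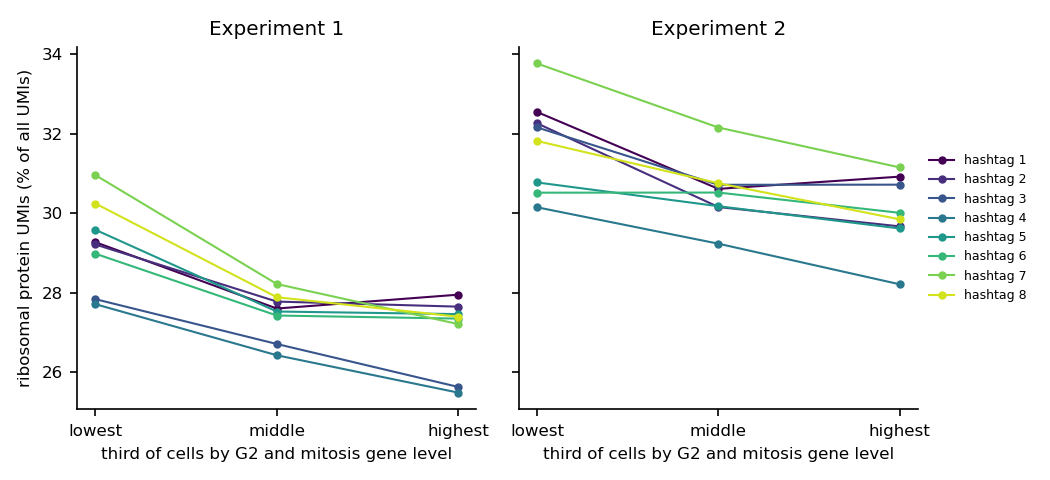
Ribosomal protein share, in percent of UMIs, in 3 equal groups of each hashtag's cells, ordered by the level of 21 G2 and mitosis genes. Each line is a hashtag, and every line ends below where it starts.

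The 21 genes were summed over hashtags as well. They were highest in hashtag 4 of experiment 1, at 5114 CPM, with hashtag 3 next at 4913 CPM and the other 6 at 3828 to 4602 CPM. Hashtags 3 and 4 were those with the lowest ribosomal protein share. In experiment 2 the order was not the same: hashtag 7, with the highest share, was at 4552 CPM, close to hashtag 4 at 4603 CPM and hashtag 8 at 4629 CPM.

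The share was also compared between cells with and without UMIs of at least 5 genes of a marker list. This rule favours deeper cells, so median depths are given. A UMI does not show that the cell expresses the gene, no background of free RNA was subtracted, and the part of free RNA, doublets and depth in these differences was not tested. Cells with progenitor markers (5802 and 4652 cells) had a share above that of the other cells in 8 of 8 hashtags of each experiment, by a median of 1.25 and 1.29 points, with 26811 against 20661 UMIs per cell in experiment 1 and 30723 against 20047 in experiment 2. Cells with T-lineage markers (3945 and 3507) were lower in 8 of 8 hashtags of each, by a median of 1.28 and 0.305 points. Their depths were 25601 against 23933 and 25236 against 27158 UMIs. Cells with innate lymphoid markers were lower in 8 of 8 and 7 of 7 hashtags with at least 10 such cells, by a median of 2.52 and 1.29 points.

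Granulocyte-marker cells were few in experiment 1 (134) and more in experiment 2 (727). There their share was below that of other cells in 7 of 8 hashtags, by up to 2.87 points, at 38227 against 25586 UMIs per cell. The summed level of the 10 markers, all detected, ran from 199 CPM in hashtag 7 to 12175 CPM in hashtag 6 of experiment 2, and from 231 to 1590 CPM in experiment 1. Cells under a share of 20% numbered 39 in experiment 1 and 173 in experiment 2, of which 48, 49 and 32 were in hashtags 5, 6 and 8. Of those 173 cells, 90 carried granulocyte markers. Monocyte-marker cells (272) and the 47 cells with mast cell or basophil markers of experiment 2 had shares of 28.8 and 26.1%, against 30.8 and 30.7% in cells without them. In experiment 1 the 121 monocyte-marker cells were lower in 3 of 5 hashtags. Cells with dendritic cell markers (2120 and 2994) had shares of 27.5 against 27.7% and 30.3 against 30.9%, and were lower in 4 of 8 and 5 of 8 hashtags. The 86 cells of experiment 2 with B-lineage markers had 31.8 against 30.7%, at 19103 against 26374 UMIs. In hashtags 7 and 8, the only ones with at least 10 such cells, they were higher by 0.037 and 1.05 points. The 220 cells with markers of OP9 stroma, which the CD45 sort should remove, had a share of 30.2%, close to the 30.7% of the rest, at 50154 against 26025 UMIs, and less Rps27l (609 against 886 CPM). Without the granulocyte-marker cells, the highest hashtag share was still 1.07 times the lowest in experiment 1 and 1.11 times in experiment 2. Pooled over hashtags, Rpl22 was lower in cells with T-lineage markers than in other cells, at 1685 against 1876 CPM in experiment 1 and 1879 against 1991 CPM in experiment 2. Rpl22l1 was at 1299 against 1291 CPM and 1367 against 1281 CPM. These cells were unevenly spread over hashtags. In experiment 1, 746 and 819 of 3945 were in hashtags 3 and 4, where Rpl22 was lowest. In experiment 2, 835 of 3507 were in hashtag 4, where Rpl22 was lowest, and 766 in hashtag 7, where it was highest. The part of this spread was not tested. The pooled levels are 1 value per library, with no test.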

How the data were processed

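Single-cell mRNA and hashtag libraries of 2 experiments (4 samples) were used. The deposited matrices hold raw UMI counts per gene and cell, made with Cell Ranger 3.0.0 on mm10 (GRCm38), per the submitters' processing notes. Deposited hashtag tables hold counts per cell. Barcodes needed 500 detected genes and less than 10% of UMIs from mitochondrial genes, and a hashtag was called at 50 counts or more and 3 times the second, which drops doublets of different hashtags (doublets within a hashtag remain, and no doublet caller was run). Shares carry exact Clopper-Pearson, levels Poisson and ratios conditional 95% intervals, for counting error only. Tools were Python 3.11.15, numpy 2.4.6, scipy 1.17.1 and pandas 2.3.3, with edgeR 4.0.16 (TMM) and DESeq2 1.42.0 (size factors) for scaling alternatives. Ratios were tested on simulated data. The named genes were all members outside the usual set, the largest and smallest ratios, the highest and lowest levels and listed complexes. Members and lists were chosen with earlier results of these data known, and genes named from the pathway lists were picked after their values were seen. Sequences and positions are RefSeq's, GRCm38.p6. Values of some genes are not reported here.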

Additional observations from a re-analysis of the deposited data

Results flagged for a closer look

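For 79 members, the share and the subunit ratio in each experiment, a hashtag was singled out where its gap to the nearest other hashtag as a share of the whole range exceeded Dixon's 95% critical value for 8 samples. This held for 12 of 162 sets of values. Chance gives about 1 in 20 for a single set, but the members share their low and high hashtags, so the sets are not independent. The count of 12 can therefore not be judged against that rate. In experiment 1 the set was that of Rps3a1, with hashtag 7 at 5259 CPM and the next hashtag at 5133 CPM. In experiment 2, 7 values were high in hashtag 7. They were Rpl39 (4387 CPM, next 4110), Rpl9 (4496, next 4180), Rps16 (5469, next 4935), Rps13 (4488, next 4270), Rps27rt (63.4, next 57.7), Rpl23 (6520, next 6084) and Rps14 (4730, next 4142). The other 4 were low in hashtag 4 of experiment 2. They were Rplp0 (6332 CPM, next 6842), Rps19 (4607, next 5007), Rps27a (5973, next 6346) and Rpl8 (4039, next 4303). The condition of these hashtags is unknown.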

How the results depend on the processing

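No paired analysis was possible because the hashtags carry no condition and no groups were compared. The 1.25-fold limit and the removal of granulocyte-marker cells were chosen after seeing the data. No member reached 1.5-fold between hashtags under any of 19 alternatives in either experiment. The share ratio of highest to lowest hashtag in experiment 1 moved beyond its counting interval to 1.072 (looser hashtag rule), 1.075 (strict cell filter), 1.069 (every barcode), 1.072 (without granulocyte-marker cells), 1.076 (no mitochondrial UMIs), 1.081 (mean over cells) and 1.076 (core genes), and to 1.066 to 1.073 leaving out a hashtag. In experiment 2 it was 1.108 (stricter hashtag rule), 1.104 (looser), 1.107 (without granulocyte-marker cells), 1.112 (no mitochondrial UMIs), 1.127 (mean over cells) and 1.111 (core genes), and 1.070 to 1.109 leaving out a hashtag, lowest without hashtag 4. Members at 1.25-fold numbered 4 under TMM and under DESeq2 in experiment 1. In experiment 2 they numbered 33 (TMM), 41 (DESeq2), 15 (per UMIs of other genes), 4 (per UMIs of members) and 5 (looser hashtag rule), and 5 to 8 leaving out a hashtag. The share in experiment 2 over experiment 1 was 1.107 (all filtered cells), 1.089 (median over hashtags) and 1.099 (no mitochondrial UMIs), and 1.100 to 1.116 leaving out a hashtag. The cause of these moves was not tested. With up to 8841 CPM per gene, counting error was small, and the limits are the unknown conditions, the single library per experiment and the sparse counts of Rpl3l and Rpl39l.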
